A study of Homo sapiens with 6 samples.

Results

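The genes described here are the E2F transcription factors and their dimerization partners of the DP family in human RPE1 cells, with and without depletion of the centriolar satellite protein OFD1. Members were taken by name, and the choice was made with earlier results of these data known. They are E2F1 to E2F8, TFDP1 and TFDP2, which make 10 of the 67130 genes listed in the table. RPE1 is an hTERT-immortalized line derived from human retinal pigment epithelium. All 6 samples were the hTERT-RPE1-TOShOFD1 line, into which a lentivirus had carried a Tet-On short hairpin RNA against OFD1. The 3 control samples had no doxycycline and the 3 OFD1-depleted samples had 200 ng/mL doxycycline, both at 72 h. No sample had doxycycline without the hairpin or a control hairpin, so the loss of OFD1, the drug and the hairpin cannot be told apart. The infected cells were kept under drug selection, and whether they were 1 clone is not stated in the sources used here. The study describes its replicates as biological, and whether they were cultures treated on separate days is not stated in the sources used here, so p-values measure the spread between these samples.

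E2F proteins bind DNA at genes needed for S phase, and the classical members do so as dimers with a DP protein. E2F1, E2F2 and E2F3 are known as activators, which the retinoblastoma protein RB1 holds back until cyclin-dependent kinases phosphorylate it. E2F4 and E2F5 work mainly as repressors in resting cells, together with the RB1 relatives RBL1 and RBL2. E2F6 represses without a pocket protein, through Polycomb complexes, and the atypical E2F7 and E2F8 repress without a DP partner. Several E2F genes are themselves E2F targets, so the family feeds back on its own transcription.

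The promoters of the activators are shown because these 3 genes carry E2F-binding words of their own just before their start sites. RefSeq windows on GRCh38.p14, from 250 bases before to 50 bases after each start, were found for 8 members in 11 windows. The words searched on both strands were TTTCCCGC, TTTCGCGC, TTTGCCGC and TTTGGCGC. The 60 bases before the start of the 3 activators follow, 5′ to 3′ on the strand of the gene, with these words in capitals. They lie at chr20:33686386-33686445 on the minus strand for E2F1, at chr1:23531234-23531293 on the minus strand for E2F2 and at chr6:20401819-20401878 on the plus strand for E2F3.
E2F1: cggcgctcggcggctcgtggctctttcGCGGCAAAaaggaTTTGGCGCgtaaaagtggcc
E2F2: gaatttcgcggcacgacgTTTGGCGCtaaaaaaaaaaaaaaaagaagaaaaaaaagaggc
E2F3: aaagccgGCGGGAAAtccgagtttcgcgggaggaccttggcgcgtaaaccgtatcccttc

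E2F1 had a word 33 to 26 bases and another 20 to 13 bases before its start. The words of E2F2 and E2F3 lay 42 to 35 and 53 to 46 bases before the start. TFDP1 had 1 word 120 to 113 bases upstream, and the windows of E2F4, E2F6, E2F7 and TFDP2 and a further E2F3 window, at a later start site, held none. No window was found for E2F5 or E2F8, so they were not searched. The same search found a word in 12 of 23 genes known as E2F targets, so a window without one may still hold another E2F site. By window, 4 of 11 member windows held an E2F word, against 1164 of 35116 windows of all genes (3.31%). A second word, TTTCGCGG, was chosen after these sequences had been seen and is common to E2F1, E2F2 and E2F3. It was found in 146 windows (0.416%), in E2F1 it overlaps the neighbouring GCGGCAAA, and 15 windows in all held both kinds of word. These matches describe the letters in the windows only.

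OFD1 itself was lower in every library labelled as depleted. It stood at 3.34, 3.62 and 3.44 FPKM in control and at 0.795, 0.763 and 1.43 FPKM in OFD1-depleted replicates 1, 2 and 3. FPKM divides the fragments of a gene by its transcript length and by the mapped fragments of the sample, so it is a level per length. From the steps between low values of single-exon genes, depth was about 37800000 to 44100000 fragments per sample. Of these low values, 20.7% to 23.9% fell within 0.05 of a whole multiple at the best depth, so the estimate is approximate and enters no test. Markers of the labelled cells were present in part. The epithelial keratins KRT8 and KRT18 reached 218 and 189 FPKM, both in OFD1-depleted replicate 2. MITF and OTX2 of the pigment epithelium list were above 1 FPKM. The other 8 of its 10 markers averaged under 1 FPKM, with DCT at 0. Of the epithelial markers, EPCAM was at 0 as well and CDH1 reached at most 0.0492 FPKM. The labels also name retina as the tissue, but the 8 photoreceptor and retinal cell markers summed to at most 0.427 FPKM in any sample, with 5 of them, among them CRX, at 0 throughout. The summed levels of the pigment epithelium, epithelial and retinal lists were 7.98 to 8.90, 254 to 272 and 0.0978 to 0.199 FPKM in control. They were 9.94 to 13.1, 294 to 407 and 0.209 to 0.427 FPKM after depletion, and their part in the results was not tested. The sums of 13.1 and 407 FPKM were both in OFD1-depleted replicate 2. There the pigment epithelium marker BEST1 stood at 4.33 FPKM, against 0.0317 and 0.0163 FPKM in OFD1-depleted replicates 1 and 3. On the principal component that held 20.5% of the variance, OFD1-depleted replicate 2 lay at -31.9 and replicates 1 and 3 at 20.1 and 19.6. Values of the members with and without that library are therefore given below.

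The E2F family changed in composition rather than as a block. Transcripts of the activators E2F1 and E2F2 fell to 30.9% and 34.4% of control, those of the atypical E2F7 fell less, and the repressor E2F5 rose 2.24-fold. E2F3, E2F4, E2F6, TFDP1 and TFDP2 did not pass the test, and E2F8 was too low to be tested. Expression was compared as log2(FPKM + 0.1) by limma in the 12025 genes that averaged 1 FPKM or more over the samples, with Benjamini-Hochberg adjustment over all of them. Of the 9 members tested, 3 were lower and 1 was higher at an adjusted p-value under 0.05. Over all genes tested, 11.9% were lower and 5.07% higher. The members' count depends on the limit of 1 FPKM, which E2F2 passed only through its control values and E2F8 did not pass, and without control replicate 1 only 1 member was lower. All OFD1-depleted values lay below all control values in 6 of the 10 members and above them in 1, where the shares of all genes tested were 22.3% and 13.8%. The 6 include E2F8, which is not among the genes tested that these shares cover. The smallest two-sided p-value that an exact permutation of 3 samples against 3 allows is 0.1. Scaling to equal totals (TPM) moved the median log2 fold change of all genes by -0.147 and gave 1974 lower and 264 higher genes in place of 1429 and 610. Quantile normalization gave 1311 lower and 1093 higher genes. Under every alternative scaling tried, E2F1, E2F2 and E2F7 stayed lower and E2F5 higher past the threshold. Without OFD1-depleted replicate 2, the log2 fold changes were -1.72 for E2F1, -1.48 for E2F2, -0.24 for E2F4, 1.13 for E2F5, 0.23 for E2F6, -0.19 for TFDP1 and -0.29 for TFDP2, and the calls of these members were the same.

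**Figure D1:**
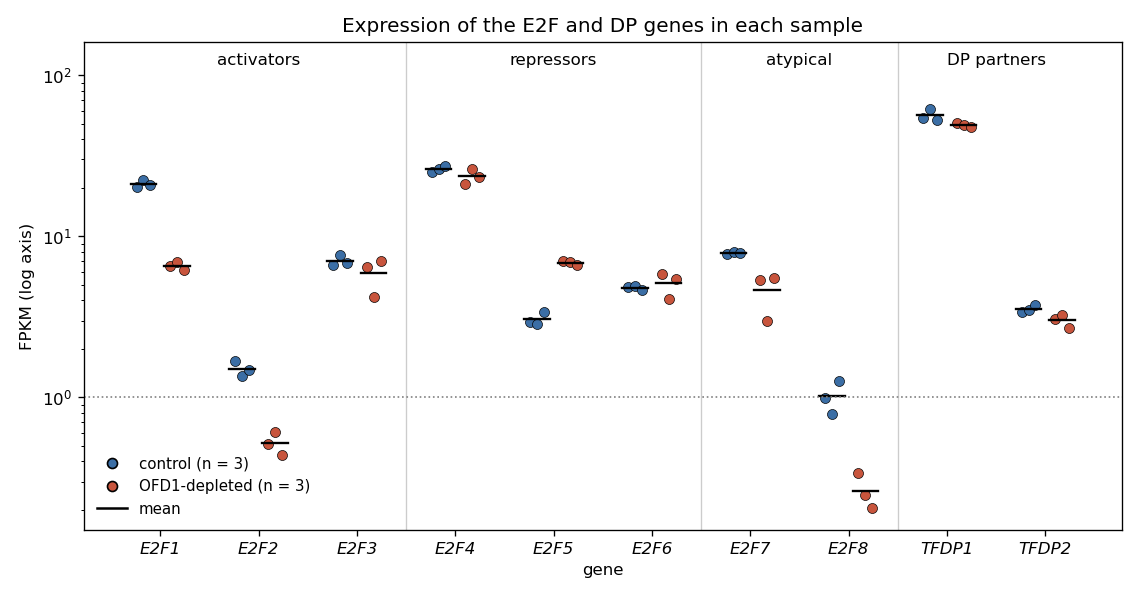
FPKM of each member (log axis) in the 3 control and 3 OFD1-depleted samples, with the mean of each group as a bar and the limit of 1 FPKM used for testing as a dotted line. The 3 E2F1 points dropped together from between 20.3 and 22.4 to between 6.19 and 6.90 FPKM, and the 3 E2F5 points rose from between 2.86 and 3.40 to between 6.61 and 7.04 FPKM.

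E2F1, the best known of the activators (ENSG00000101412, GRCh38 chromosome 20 from 33675477 to 33686385), stood at 20.3, 22.4 and 20.9 FPKM in the control replicates. In the OFD1-depleted replicates it stood at 6.58, 6.90 and 6.19 FPKM. The values within each group were close together and the groups lay far apart. The log2 fold change was -1.68 (SE 0.126, adjusted p = 1.7e-05 by limma), and 30.9% of the control mean remained. By p-value E2F1 ranked 24 among the 12025 genes. Its log2 fold change stayed between -1.83 and -1.56 in the 16 alternatives.

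E2F2 (ENSG00000007968, chromosome 1 from 23506438 to 23531233), another activator, was far less abundant. Its level was 1.68, 1.37 and 1.48 FPKM in control and 0.513, 0.606 and 0.437 FPKM in OFD1-depleted samples. No value of one group reached the other. The log2 fold change was -1.38 (SE 0.299, adjusted p = 0.009 by limma), at 34.4% of the control mean. With a mean of 1.01 FPKM over the 6 samples, E2F2 passed the limit of 1 FPKM only through its control values. Without control replicate 1 its adjusted p-value was 0.0555, and with a pseudocount of 1 its log2 fold change shrank to -0.72. The estimated depth puts 51.7 to 64.5 fragments per kilobase behind the control values and 18.1 to 26.7 behind the others.

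E2F3 (ENSG00000112242, chromosome 6 from 20401879 to 20493714) is the activator with alternative start sites. It stood at 6.63, 7.65 and 6.78 FPKM in control and at 6.46, 4.19 and 7.02 FPKM in OFD1-depleted replicates 1, 2 and 3. Only replicate 2 was clearly below the controls, and the groups overlapped. The log2 fold change was -0.28, with a 95% interval from -0.70 to 0.14 (adjusted p = 0.361 by limma). Without OFD1-depleted replicate 2 it was -0.06 (adjusted p = 0.774). At the level of whole genes, the 3 activators therefore did not move as 1 class. The value of E2F3 pools transcripts from its alternative start sites, so a change in only some of them would not be seen.

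E2F4, the most abundant E2F in both groups (ENSG00000205250, chromosome 16 from 67192155 to 67198918), is the repressor usually found with RBL2 in resting cells. It stood at 25.1, 26.3 and 27.3 FPKM in control and at 21.1, 26.3 and 23.5 FPKM in OFD1-depleted samples. The ranges overlapped through OFD1-depleted replicate 2. The log2 fold change was -0.16, with a 95% interval from -0.44 to 0.13 (adjusted p = 0.453 by limma).

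E2F5 (ENSG00000133740, chromosome 8 from 85177154 to 85217158), the repressor closest in kind to E2F4, was the member that rose. It stood at 2.93, 2.86 and 3.40 FPKM in control and at 7.04, 6.97 and 6.61 FPKM in OFD1-depleted samples. Every OFD1-depleted value lay above every control value. The mean rose 2.24-fold, with a log2 fold change of 1.14 (SE 0.149, adjusted p = 0.00039 by limma), which stayed between 0.96 and 1.27 in the 15 alternatives that could test it. The end of E2F5 overlaps RBIS, a gene on the other strand, by 3111 bases, and in GENCODE 44 they share 997 of the 5999 exonic bases of E2F5 (16.6%). Since the strand setting of the counting is not stated, reads there may have been assigned to either gene. RBIS stood at 25.7, 33.7 and 24.6 FPKM in control and at 28.7, 39.3 and 31.1 FPKM in OFD1-depleted samples, a log2 fold change of 0.24 (adjusted p = 0.363 by limma). Other genes that overlap members reached at most 0.129 FPKM. The part of reads shared with RBIS in the values of E2F5 was not tested.

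E2F6 (ENSG00000169016, chromosome 2 from 11444375 to 11466177), the Polycomb-linked repressor, stood at 4.81, 4.90 and 4.63 FPKM in control. In OFD1-depleted replicates 1, 2 and 3 it stood at 5.82, 4.05 and 5.46 FPKM, on both sides of the controls. The log2 fold change was 0.08, with a 95% interval from -0.29 to 0.45 (adjusted p = 0.796 by limma). Its sign was not stable, at -0.07 with TPM scaling and -0.02 without OFD1-depleted replicate 1. The processed pseudogene E2F6P1 had 0.552 to 1.04 FPKM, and reads shared with E2F6 may have been assigned to either.

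**Figure D2:**
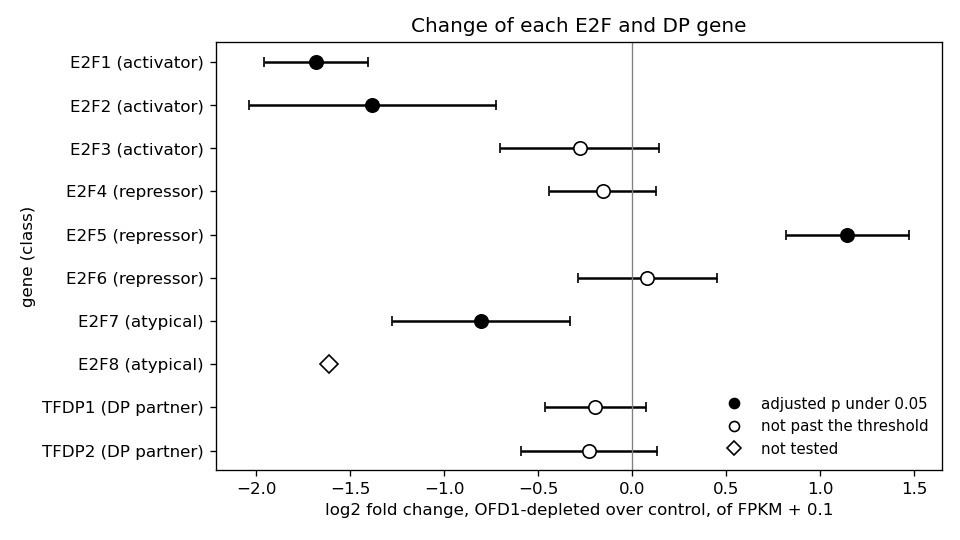
Log2 fold change of each member (OFD1-depleted over control, on FPKM + 0.1), with 95% intervals from limma as bars. Filled points had an adjusted p-value under 0.05, open circles did not, and the diamond is E2F8, at -1.61, which was not tested. Both E2F1 and E2F2 lie left of -1 and E2F5 right of 1, while the intervals of E2F3, E2F4, E2F6, TFDP1 and TFDP2 include 0.

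E2F7 (ENSG00000165891, chromosome 12 from 77021248 to 77065569) is an atypical repressor made in S phase. It stood at 7.74, 7.97 and 7.85 FPKM in control and at 5.39, 2.97 and 5.48 FPKM in OFD1-depleted replicates 1, 2 and 3. All OFD1-depleted values were below the controls, and replicate 2 was the lowest by far. The log2 fold change was -0.81 (SE 0.216, adjusted p = 0.026 by limma). Without OFD1-depleted replicate 2 it was -0.52 (adjusted p = 0.0106), so the size rests in part on that library. The call was lost when any 1 control sample was left out, with adjusted p-values of 0.0612, 0.0841 and 0.085 without replicates 1, 2 and 3.

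E2F8 (ENSG00000129173, chromosome 11 from 19224063 to 19241620), the other atypical repressor, was the least abundant member. It stood at 0.991, 0.792 and 1.26 FPKM in control and at 0.337, 0.246 and 0.205 FPKM in OFD1-depleted samples. The groups did not overlap, and 25.9% of the control mean remained. With a mean of 0.638 FPKM it fell below the limit for testing. When all 28501 genes above 0 were tested instead, its log2 fold change was -1.61 (SE 0.32) and the limma adjusted p-value 0.0538, and with a pseudocount of 1 the log2 difference was -0.67. The values rest on an estimated 29.9 to 49.3 fragments per kilobase in control and 8.51 to 13.3 in OFD1-depleted samples.

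The DP partners did not pass the threshold. TFDP1 (ENSG00000198176, chromosome 13 from 113584721 to 113641473), the main partner, stood at 54.2, 62.1 and 53.0 FPKM in control and at 50.5, 48.9 and 47.8 FPKM in OFD1-depleted samples. The groups did not overlap, but by a narrow margin. Its log2 fold change was -0.20, with a 95% interval from -0.47 to 0.07 (adjusted p = 0.308 by limma). TFDP2 (ENSG00000114126, chromosome 3 from 141944428 to 142149544) stood at 3.41, 3.47 and 3.73 FPKM in control and at 3.06, 3.26 and 2.69 FPKM in OFD1-depleted samples, again without overlap. Its log2 fold change was -0.23, with a 95% interval from -0.59 to 0.13 (adjusted p = 0.385 by limma). TFDP1 made up 94.1% ± 0.64 of the summed DP transcripts in control and, after depletion, 94.2% ± 0.465 (mean ± SD, n = 3 each).

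Levels of different members can be set side by side because FPKM is per length, although the length used depends on the isoforms that were assembled. In control the order from high to low was TFDP1, E2F4, E2F1, E2F7, E2F3, E2F6, TFDP2, E2F5, E2F2 and E2F8, and no neighbours in it overlapped. In OFD1-depleted samples TFDP1 and E2F4 still led and E2F2 and E2F8 still came last. Between them, E2F5, E2F1, E2F3, E2F6, E2F7 and TFDP2 followed in that order of means, and each overlapped the next. E2F5 thus went from the lowest level among E2F1, E2F3, E2F4, E2F5, E2F6 and E2F7 to a level beside that of E2F1. The ratio of E2F5 to E2F1 was 0.145 ± 0.0174 in control and 1.05 ± 0.0331 in OFD1-depleted samples (mean ± SD, n = 3 each). For E2F4 to E2F1 it was 1.24 ± 0.0663 in control and 3.60 ± 0.344 in OFD1-depleted samples (mean ± SD, n = 3 each).

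Activators were then set against repressors as shares of the summed E2F transcripts. The activators E2F1, E2F2 and E2F3 made up 40.8%, 42.3% and 39.6% of the summed FPKM of E2F1 to E2F8 in the control replicates. In the OFD1-depleted replicates they made up 25.5%, 22.4% and 24.9%. The share of E2F4, E2F5 and E2F6 was 46.8%, 45.9% and 48.0% in control and 63.8%, 71.4% and 64.8% in OFD1-depleted samples. The atypical members took 12.2% ± 0.344 in control and 9.09% ± 2.54 in OFD1-depleted samples (mean ± SD, n = 3 each). None of these 3 shares overlapped between the groups. The summed FPKM of all 8 E2F genes went from 72.7 ± 2.19 to 53.4 ± 1.34 (mean ± SD, n = 3 each). Per DP transcript, the 6 classical E2F genes gave 1.07 ± 0.0701 in control and 0.933 ± 0.0439 in OFD1-depleted samples (mean ± SD, n = 3 each). Shares of a sum are tied to each other, so the rise of the repressor share contains the fall of E2F1. The share of E2F4 went from 36.1% ± 0.891 to 44.2% ± 5.49 (mean ± SD, n = 3 each), while its mean level went from 26.3 to 23.6 FPKM. Of E2F4, E2F5 and E2F6, only E2F5 rose past the threshold, so the larger share is not a rise of repressor transcripts as a class.

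**Figure D3:**
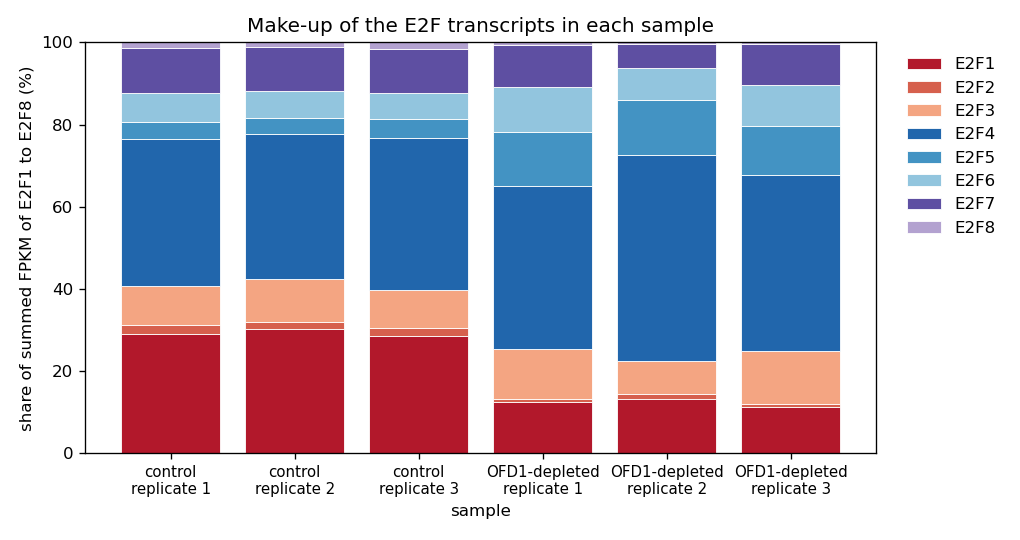
Share of each E2F gene in the summed FPKM of E2F1 to E2F8, as stacked bars for each of the 6 samples, with activators in red, repressors in blue and atypical members in violet. The share of E2F1 went from 29.2% ± 0.914 to 12.3% ± 0.967 and that of E2F5 from 4.21% ± 0.382 to 12.9% ± 0.723 (mean ± SD, n = 3 each).

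On the log scale, the mean log2(FPKM + 0.1) of the activators minus that of E2F4, E2F5 and E2F6 was -0.21, -0.20 and -0.33 in the control replicates. It was -1.69, -1.73 and -1.73 in the OFD1-depleted replicates, a difference of -1.47 between the group means. The value hardly differed between OFD1-depleted replicates. E2F3 and E2F6 were both lowest in replicate 2, but they enter the difference with opposite signs, so their dips offset each other in part. The classes overlapped all the same, since the activator E2F3 and the repressors E2F4 and E2F6 had log2 fold changes between -0.28 and 0.08. With E2F7 and E2F8 counted as repressors, the difference was -0.84.

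Genes known as E2F targets of the G1/S transition were taken as a list of 28, which covers replication licensing, nucleotide synthesis and entry into S phase. The list was chosen with earlier results of these data known, so its count describes these genes and is no independent test. All 28 were lower past the threshold, with a median log2 fold change of -1.13, against 11.9% of all genes tested and a median of -0.03. The range ran from -2.71 for BRCA1 to -0.51 for SLBP, which encodes the histone stem-loop binding protein. RRM2, a subunit of ribonucleotide reductase, had the smallest p-value. It fell from 51.0, 57.8 and 54.3 FPKM in control to 11.7, 12.6 and 12.5 FPKM in OFD1-depleted samples (log2 fold change -2.14, adjusted p = 5e-06 by limma). CCNE2, a cyclin that drives CDK2, fell from 6.92, 7.35 and 5.71 to 1.16, 1.11 and 1.08 FPKM (log2 fold change -2.47, adjusted p = 1.4e-05 by limma). BRCA1, a homologous recombination protein, fell from 5.19, 5.65 and 5.12 to 0.84, 0.553 and 0.825 FPKM (adjusted p = 2.3e-05 by limma). BRCA1 and CCNE1 had means under 1 FPKM after depletion and were tested through their control values. Of 36 promoter windows found for 23 of these genes, 13 held an E2F word, or 36.1%. Between 21 and 28 of the list passed in the 16 alternatives. In bulk samples, fewer cells in a phase of the cycle and less RNA per cell cannot be told apart.

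**Figure D4:**
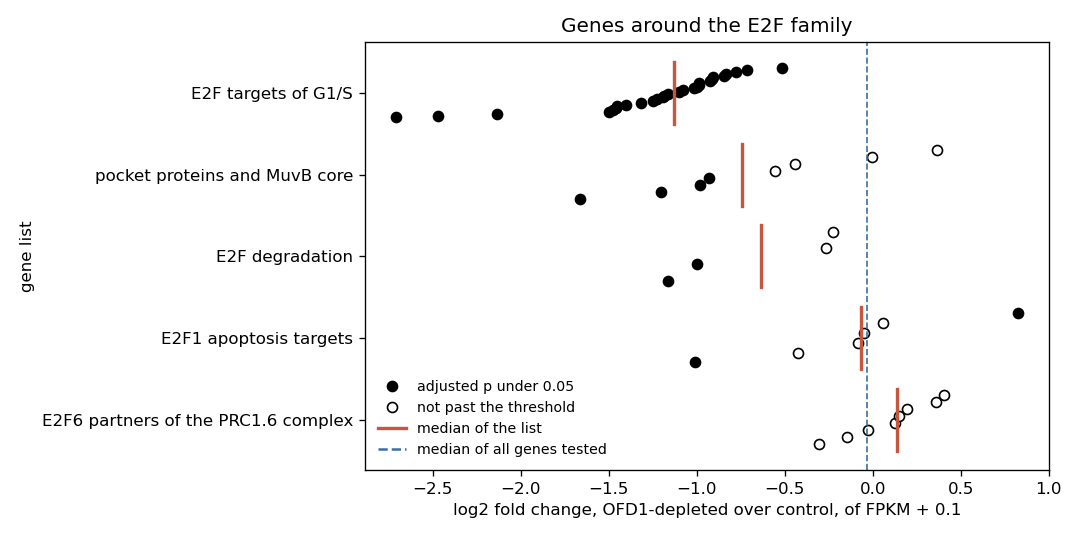
Log2 fold change (OFD1-depleted over control, on FPKM + 0.1) of every tested gene in 5 lists around the E2F family, as points, with the median of each list as a red bar and that of all genes tested as a dashed line. All 28 E2F targets are filled, meaning an adjusted p-value under 0.05, and lie left of -0.5, while the 8 tested E2F6 partners are open and lie around 0.

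Of 8 pocket protein and MuvB genes, the partners that turn E2F proteins into repressors, 4 were lower and none higher, where 11.9% of all genes tested were lower and 5.07% higher. Their median log2 fold change was -0.74, against -0.03 over all genes tested. RBL1, the pocket protein p107 and itself an E2F target, stood at 4.27, 4.60 and 3.58 FPKM in control and at 1.72, 0.834 and 1.30 FPKM in OFD1-depleted samples (log2 fold change -1.66, adjusted p = 0.0012 by limma). RB1, the partner of the activators, fell from 14.2 ± 1.70 to 7.26 ± 1.58 FPKM (mean ± SD, n = 3 each, log2 fold change -0.98, adjusted p = 0.0034 by limma). RBL2, the pocket protein p130 that pairs with E2F4 and E2F5, had a log2 fold change of -0.44 (adjusted p = 0.18 by limma), and its lowest value, 3.26 FPKM, was in OFD1-depleted replicate 2. In the MuvB core, which joins RBL2 and E2F4 in the DREAM complex, LIN9 (-1.20) and LIN54 (-0.93) fell. LIN52 (-0.55), LIN37 (0.37) and RBBP4 (-0.01) did not pass the threshold on the log2 scale.

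Of 4 genes whose products direct the breakdown of E2F proteins, 2 were lower, beside 11.9% of all genes tested, and the median log2 fold change was -0.63. With 4 genes this is a description of each gene and not of the list. CCNF, the F-box protein cyclin F, fell from 8.77 ± 0.535 to 4.33 ± 0.133 FPKM (mean ± SD, n = 3 each, adjusted p = 0.00053 by limma). CDC20, an activator of the anaphase-promoting complex, fell from 54.1 ± 1.96 to 24.1 ± 1.38 FPKM (mean ± SD, n = 3 each, adjusted p = 9.1e-05 by limma). The log2 fold changes of FZR1 (-0.26) and SKP2 (-0.23) did not pass the threshold.

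No tested gene of the lists around E2F6 passed the threshold in either direction. In the Polycomb complex PRC1.6, 8 of 9 partners were tested, with log2 fold changes from -0.31 for PCGF6 to 0.41 for RNF2. MAX, a DNA-binding subunit of that complex, was closest to the threshold (log2 fold change 0.36, adjusted p = 0.0844 by limma), and MGA, at a mean of 0.826 FPKM, was not tested. CBX3 (-0.15), RING1 (-0.03), RYBP (0.12), YAF2 (0.15) and L3MBTL2 (0.19) had smaller log2 fold changes. Of 7 germline genes that E2F6 is known to help silence, SLC25A31, MAEL and DAZL were at 0 in every sample, and STAG3, SMC1B and DDX4 averaged under 1 FPKM in both groups. TDRKH, the only one tested, had a log2 fold change of -0.31 (adjusted p = 0.361 by limma).

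Among 9 apoptosis genes known as E2F1 targets, 6 were tested, and 1 fell and 1 rose. These counts are near the 11.9% and 5.07% of all genes tested and are no result about the list, whose median log2 fold change was -0.07. PMAIP1, which encodes the BH3-only protein NOXA, fell from 16.9, 20.8 and 16.1 to 9.22, 7.59 and 9.74 FPKM (log2 fold change -1.01, adjusted p = 0.001 by limma). BBC3, which encodes PUMA, rose from 3.57, 4.02 and 3.88 to 5.84, 9.93 and 5.55 FPKM (log2 fold change 0.83, adjusted p = 0.0212 by limma), with its highest value in OFD1-depleted replicate 2. The call of BBC3 was lost when any 1 control sample was left out. The log2 fold changes of APAF1 (-0.42) and TP53BP2 (-0.05) did not pass the threshold. TP73 was at 0 throughout, PPP1R13B averaged 0.398 FPKM, and BCL2L11 went from 1.20 ± 0.152 to 0.578 ± 0.218 FPKM (mean ± SD, n = 3 each) without being tested.

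As a description, the genes outside the family whose log2 values followed those of E2F1 most closely over the 6 samples were FBXO5, UBTF, DAP, TPX2 and CHAF1A. Their Pearson correlations with E2F1 ran from 0.998 to 0.9996. With only 6 samples that share the group difference, 108 of 12024 genes reached a correlation above 0.99. Among the members, E2F2 had a correlation of 0.981 with E2F1 and E2F5 one of -0.988, while E2F3 (0.483) and E2F6 (-0.271) followed it least.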

How the data were processed

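RNA from 6 samples of 1 RPE1 line, 3 control and 3 OFD1-depleted, was sequenced. The labels name a TruSeq and a directional NEBNext kit, and describe extraction from retinas although the samples are a cultured line. Per the methods and the labels, the authors aligned reads with HISAT2 2.0.5 to GRCh38 (Ensembl version 94) and summarized genes with StringTie, and they deposited 1 FPKM value per gene and sample. The strand setting is not given in the sources used here. FPKM holds no counts, so no count test was used. E2F2 also has a row on an alternative contig, at 0 in all samples, which was left out.

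The comparison used limma 3.58.1 (R 4.3.3) with a variance trend on log2(FPKM + 0.1) of every gene averaging 1 FPKM or more, which understates changes of low genes. P-values were two-sided and Benjamini-Hochberg adjusted, and the script was tested on simulated data. The members and lists were chosen with earlier results of these data known. Named genes are the members, OFD1, overlapping genes and pseudogenes of members, up to 3 genes of smallest p in each list and all of lists of at most 9 genes, and the 5 genes most correlated with E2F1. Named beyond this rule, after their values were seen, were SLBP, CCNE1, DCT and BEST1. Some genes of the lists are not reported here by name. Alternatives covered pseudocount, filter, scaling, variance model, replicate block and leaving out each sample. Promoter windows came from RefSeq (GRCh38.p14).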

Additional observations from a re-analysis of the deposited data

How the results depend on the processing

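Of 291 values recomputed under the alternatives, 255 kept their direction and their side of the threshold or stayed within 1.5 times the count. Whether replicate numbers pair the samples is not stated in the sources used here. Deviations of samples with the same number correlated at 0.0579, 0.0481 and 0.011 across genes, and those with different numbers at -0.0799 to 0.0503. Such low correlations cannot settle whether the samples were paired. With the replicate number as a block, the members gave 3 lower and 1 higher, the E2F targets 28 lower, and all genes 1534 lower and 762 higher, and no call of a member changed.

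With no filter, 823 genes were lower and 260 higher, the other lists gave 0 higher, and E2F7 lost its call (adjusted p = 0.155). With a mean of at least 5 FPKM, 0 members were higher because E2F5 was no longer tested. The other lists gave 4 lower, as RBL1, LIN9 and LIN54, with means of 2.72, 2.22 and 2.24 FPKM, were no longer tested. Array weights gave 2263 lower and 1693 higher genes. TPM scaling gave 264 higher and quantile normalization 1093 higher genes. Genes of the other lists higher numbered 2 with array weights, median-of-ratios scaling and quantile normalization. The causes of the other shifts were not tested. The difference between activators and repressors was -1.53 and -1.13 with pseudocounts of 0.01 and 1, and -0.84 with E2F7 and E2F8 as repressors. E2F6 turned to -0.0668 with TPM scaling and -0.0225 without OFD1-depleted replicate 1.

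With each sample left out in turn, E2F6 lay between -0.0225 and 0.233, and members lower numbered 1 to 3, the 1 being without control replicate 1, and members higher 1. Over all genes, 867 to 1741 were lower and 244 to 1077 higher, with 867 and 244 without control replicate 3, 904 and 251 without control replicate 1, and higher genes numbering 321, 1077 and 398 without OFD1-depleted replicates 1, 2 and 3. Genes of the other lists higher numbered 0 to 1, with 0 without each control sample. The 2 members of lowest level, E2F2 and E2F8, rest on estimated fragments per kilobase of at most 64.5 and 49.3 in any sample.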
